A study of Mus musculus with 35 samples.

Results

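Matricellular proteins are secreted proteins that sit in the extracellular matrix without being its main scaffold and that signal to cells. The 10 genes described here, Spp1, Tnc, Postn, Sparc, Thbs1, Thbs2, Fn1, Ccn1, Ccn2 and Ccn4, encode such proteins together with fibronectin, and they were taken by symbol from the 36106 genes of a count table of irradiated mouse skin. All 10 were found once in the table and all 10 passed the low-count filter in every comparison. By week 4 after radiation all 10 differed between radiated and control skin, as did 48.4% of all genes tested: Tnc, Spp1 and Ccn4 were 493-fold, 96.8-fold and 16.3-fold higher, Sparc, Thbs1, Thbs2, Postn and Fn1 between 3.26-fold and 6.97-fold higher, and Ccn1 and Ccn2 were lower by 1.95-fold and 2.2-fold. Of these, 5 differed already in week 3, when 27.2% of all genes did: Spp1, Tnc, Thbs1 and Ccn4 were higher and Ccn2 was lower. Against skin of mice given no radiation, radiated skin of week 4 was instead 2.4-fold higher in Ccn1, and Thbs1 and Ccn2 were not called.

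RNA was sequenced from bulk skin of 19 female mice of the inbred strain C57BL/6J, 10 weeks old, with no transgene or deletion named. Radiated skin had received 25 Gy to the left flank over 420 s at 3.6 Gy per min, and the treated flank was shaved afterwards. There were 16 radiated and 16 control libraries, with n = 4 of each kind in weeks 1, 2, 3 and 4, and n = 3 sham libraries from mice given no radiation. The labels call the second kind control and do not say from where on the body it was taken; with 35 libraries from 19 mice, a radiated and a control library of the same week and number were inferred to come from 1 mouse. Sham mice formed a single group with no week, and whether sham or control skin was shaved is not stated.

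Matricellular proteins bind integrins, CD44, syndecans and other receptors on the cell surface, and they also bind collagen, growth factors and proteases. Several are scarce in resting adult skin and are made by fibroblasts, macrophages, platelets and endothelial cells when a wound heals or a scar forms. Thrombospondin 1 can release TGF-beta from its latent complex, TGF-beta raises transcription of several of these genes, and the CCN genes Ccn1 and Ccn2 are textbook targets of the coactivator YAP with TEAD factors.

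For 6 of the 10 genes a promoter window of 250 bases before the transcription start was at hand, from RefSeq on GRCm38.p6. The windows of Spp1, Tnc, Postn and Ccn1 are shown, since Spp1 and Tnc had the largest rises, Postn a rise late in the course and Ccn1 a fall against control skin. They are written 5′ to 3′ on the gene's strand, and capitals mark any match to 4 motifs: AP-1 (TGANTCA), RUNX (ACCACA), TEAD (GGAATG) and the TATA box (TATAAA). The AP-1, RUNX and TEAD motifs were searched on both strands, so that TEAD also appears as CATTCC, and the TATA box on the gene's strand.
Spp1 (chr5:104434861-104435110, plus strand): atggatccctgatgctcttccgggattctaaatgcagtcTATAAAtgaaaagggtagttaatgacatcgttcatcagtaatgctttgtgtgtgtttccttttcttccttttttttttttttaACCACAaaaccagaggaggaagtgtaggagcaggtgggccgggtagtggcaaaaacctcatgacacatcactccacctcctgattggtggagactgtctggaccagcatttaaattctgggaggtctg
Tnc (chr4:64047016-64047265, minus strand): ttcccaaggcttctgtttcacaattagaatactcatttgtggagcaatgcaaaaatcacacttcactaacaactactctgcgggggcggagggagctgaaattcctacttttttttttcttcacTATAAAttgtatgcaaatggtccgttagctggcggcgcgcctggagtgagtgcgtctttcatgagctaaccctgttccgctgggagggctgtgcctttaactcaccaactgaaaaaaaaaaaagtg
Postn (chr3:54360857-54361106, plus strand): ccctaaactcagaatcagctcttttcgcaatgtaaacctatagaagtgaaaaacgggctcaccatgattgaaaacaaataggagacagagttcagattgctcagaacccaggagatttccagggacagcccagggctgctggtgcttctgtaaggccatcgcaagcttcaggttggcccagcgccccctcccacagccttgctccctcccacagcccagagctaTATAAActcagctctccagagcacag
Ccn1 (chr3:145649986-145650235, minus strand): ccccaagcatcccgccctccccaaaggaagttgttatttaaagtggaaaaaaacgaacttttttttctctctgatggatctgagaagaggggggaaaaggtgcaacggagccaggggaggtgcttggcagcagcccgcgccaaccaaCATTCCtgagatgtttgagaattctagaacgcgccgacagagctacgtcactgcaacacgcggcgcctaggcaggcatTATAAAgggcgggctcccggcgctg
A TATAAA stretch lay 26 to 21 bases before the start in Postn and 25 to 20 bases before it in Ccn1. In Tnc it lay 126 to 121 bases before the start and in Spp1 211 to 206 bases before it. Of all 32536 promoter windows of this length, 7.55% held TATAAA. The window of Spp1 held a RUNX match 128 to 123 bases before the start, as did 14.0% of all windows, and that of Ccn1 a TEAD match on the opposite strand 103 to 98 bases before the start, as did 12.6%. No AP-1 match, present in 6.73% of all windows, was found in any of the 6, and the windows of Sparc and Thbs2 matched none of the 4 motifs. The start used for Sparc lay 3103 bases from the 5′ end of its gene position given below, inside the gene. The starts of the other windows lay within 27 bases of that end. A match is only a description of letters, and no binding was measured.

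Library totals ran from 17362853 to 28487885 estimated counts, and levels are given as CPM, counts per 1e+06 of the scaled library. Keratinocyte markers, all 6 of them tested, summed to 17250 to 19590 CPM in control and 11710 to 16090 CPM in radiated skin of week 4, and within the list 2 rose, among them Krt14, and 3 fell, among them Krt10 and Trp63. Other cell types moved with radiation, as the plot of marker levels shows. In week 4, 7 of 9 fibroblast markers, 10 of 10 macrophage markers, 6 of 6 neutrophil markers, 4 of 4 platelet markers and 5 of 5 endothelial markers that were tested rose against control skin, and none of these fell. At the same time 6 of 8 hair follicle markers rose and 5 of 7 skeletal muscle markers fell. Of all genes tested in that comparison, 24.2% were called higher and 24.2% lower. Summed hair follicle markers ran from 2129 to 33490 CPM in sham skin, 36.2 to 50.0 CPM in control skin of week 4 and 24.4 to 5794 CPM in radiated skin of week 4. Their part in the results below was not tested, and in bulk skin a change in the number of cells of a type and a change in the RNA per cell cannot be told apart.

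**Figure D1:**
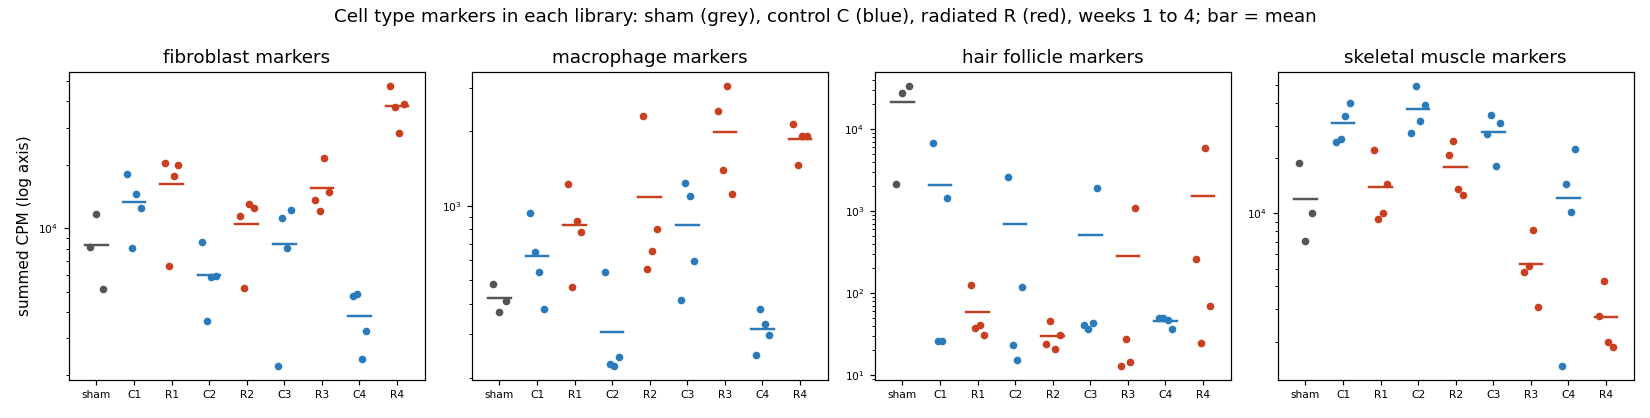
Summed CPM (log axis) of fibroblast, macrophage, hair follicle and skeletal muscle markers in each library, with sham in grey, control in blue, radiated in red, weeks on the x axis and a bar at the group mean. Fibroblast markers summed to 28210 to 47370 CPM in radiated skin of week 4 and to 2395 to 4877 CPM in control skin of that week, and Col1a1, Col1a2 and Col3a1 made up 63.2% to 95.3% of these sums.

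Spp1 encodes osteopontin, a phosphoprotein that binds integrins and CD44 and is made by activated macrophages as well as by bone cells. It lies at chr5:104435118-104441050 on the plus strand of GRCm38 and was scarce outside 2 groups. Over the sham, the control and the radiated libraries of weeks 1 and 2, Spp1 lay between 0.442 and 3.24 CPM, and its lowest library held 10 counts. In radiated skin of week 3 it stood at 79.0, 22.9, 36.4 and 18.7 CPM against 1.53, 3.24, 1.53 and 2.28 CPM in control skin. Every radiated library of that week thus lay above every control library. In week 4 the radiated libraries held 136, 91.1, 35.4 and 96.8 CPM and the control libraries 1.32, 0.442, 0.897 and 1.08 CPM. The groups were again apart, by the widest ratio of any week. By edgeR's quasi-likelihood F test the log2 rise was 4.22 ± 0.52 (SE, adjusted p = 0.00129) in week 3 and 6.60 ± 0.48 (adjusted p = 6.88e-06) in week 4, and without radiated replicate 1 the rise of week 3 was 3.62. The 2 radiated groups overlapped each other, at 39.3 ± 27.6 and 89.9 ± 41.5 CPM (SD, n = 4). Macrophage markers, all 10 of them tested, summed to 1118 to 3063 CPM in radiated and 413 to 1236 CPM in control skin of week 3, and to 1468 to 2141 CPM against 247 to 381 CPM in week 4. Of 5 bone and cartilage markers, 1 passed the low-count filter in week 4, and it was Acan, which rose from 0.0937 to 2.79 CPM.

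Tnc encodes tenascin C, a large hexameric glycoprotein that is low in adult skin and induced at wound edges. It lies at chr4:63959785-64047015 on the minus strand and had the largest ratio of highest to lowest library of the 10 genes, from 5.38 CPM in a control library of week 4 to 6280 CPM in a radiated library of week 3. Radiated skin of week 3 held 4198, 2645, 6280 and 768 CPM, and control skin of that week 14.7, 21.0, 15.8 and 28.9 CPM. The lowest radiated library, replicate 4, was still far above the highest control library. In week 4 the radiated values were 3177, 2655, 3887 and 5155 CPM and the control values 7.99, 8.45, 5.38 and 8.46 CPM. Tnc therefore separated the groups completely in both weeks, while the radiated groups of weeks 3 and 4 overlapped each other. The log2 rise by edgeR was 7.46 ± 0.69 (SE, adjusted p = 0.000641) in week 3 and 8.95 ± 0.30 (adjusted p = 2.2e-07) in week 4. Earlier, Tnc was uneven: radiated skin of week 2 held 17.4, 15.5, 72.1 and 536 CPM, with replicate 4 standing apart. Its control libraries of week 2 held 49.2, 9.81, 14.0 and 47.5 CPM, of which replicates 1 and 4 lay inside the range of the radiated ones and replicates 2 and 3 below it.

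Ccn4, also known as Wisp1, encodes a CCN-family protein induced by Wnt signalling. It lies at chr15:66891320-66923201 on the plus strand. In week 3 it stood at 26.5, 18.3, 24.3 and 8.15 CPM in radiated and 3.47, 2.13, 2.74 and 2.17 CPM in control skin. In week 4 it stood at 69.8, 47.9, 28.9 and 53.2 CPM against 2.33, 3.36, 2.52 and 4.04 CPM. The groups did not overlap in either week, and the radiated libraries of week 4 were all above those of week 3. Log2 fold changes were 2.91 ± 0.37 (SE, adjusted p = 0.00154, edgeR) and 4.02 ± 0.30 (adjusted p = 7.1e-06). In weeks 1 and 2 radiated skin lay at 2.05 to 6.55 CPM and control skin at 2.23 to 5.79 CPM.

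**Figure D2:**
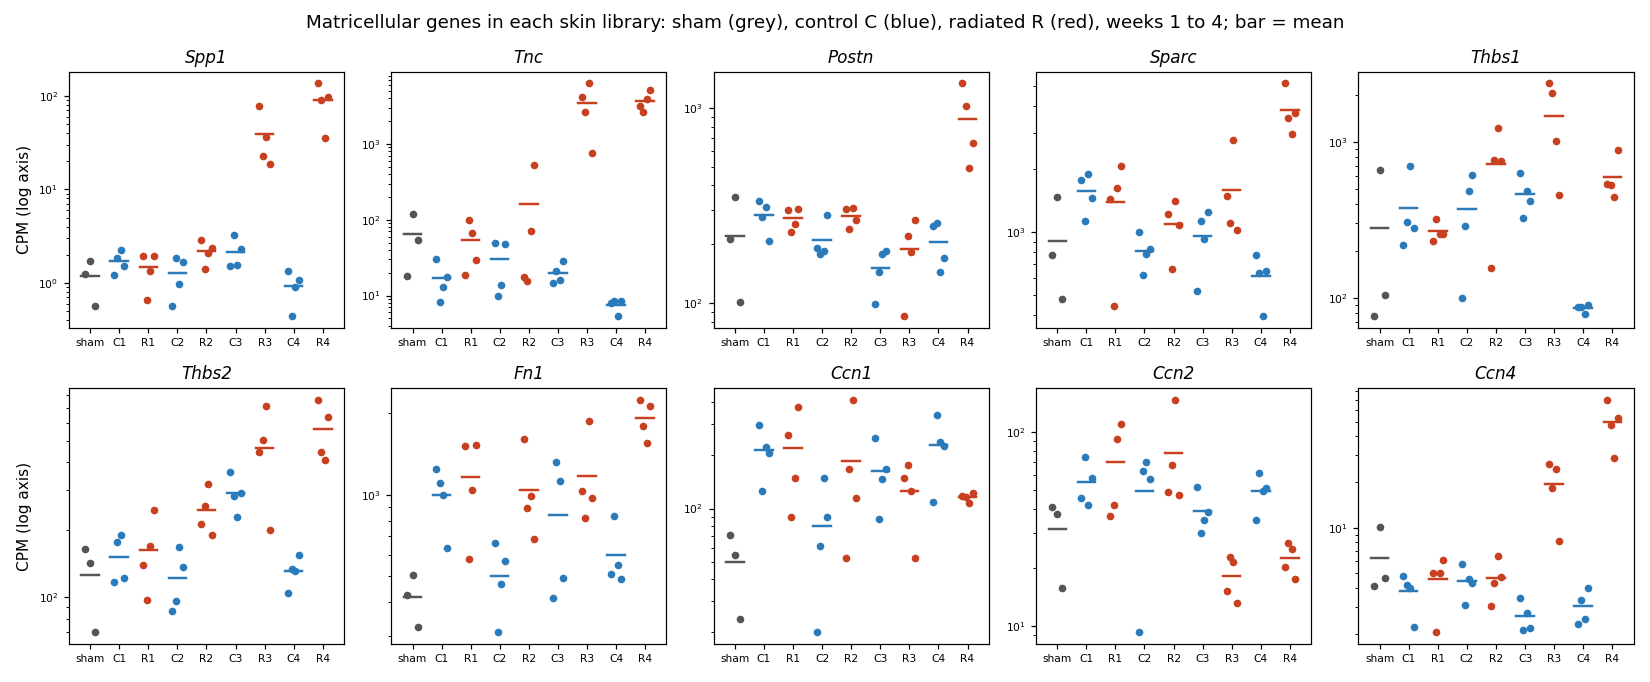
CPM (log axis) of each of the 10 genes in each of the 35 libraries, with sham in grey, control (C) in blue, radiated (R) in red, weeks 1 to 4 on the x axis and a bar at the group mean. Tnc and Spp1 leave the level of all other groups in radiated skin of weeks 3 and 4, Postn, Sparc and Ccn4 in week 4, and Ccn2 has its lowest group means in radiated skin of weeks 3 and 4.

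Postn encodes periostin, a protein of fibroblasts that binds collagen and integrins and is abundant in remodelling dermis (chr3:54361109-54391037, plus strand). It differed from Spp1, Tnc and Ccn4 in that week 3 gave no call. Radiated skin of week 3 held 86.0, 220, 183 and 267 CPM and control skin 98.8, 144, 179 and 185 CPM, which overlap. In week 4 Postn reached 1330, 1023, 490 and 660 CPM in radiated skin against 248, 256, 144 and 170 CPM in control skin. These 4 radiated libraries were above all other libraries of the study. The log2 difference was 0.34 ± 0.32 (SE, adjusted p = 0.457, edgeR) in week 3 and 2.11 ± 0.32 (adjusted p = 0.000458) in week 4.

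Sparc encodes osteonectin, a collagen-binding protein needed for collagen fibril assembly (chr11:55394500-55423183, minus strand). Radiated skin of week 4 held 5154, 3539, 2958 and 3730 CPM, against 776, 634, 397 and 654 CPM in control skin. Those 4 libraries were above every other library, the next being a radiated library of week 3 at 2752 CPM. The rise was 2.65 ± 0.24 on the log2 scale (SE, adjusted p = 2e-05, edgeR). In week 3 radiated skin at 1496, 1109, 2752 and 1019 CPM overlapped control skin at 521, 1136, 925 and 1242 CPM. The difference of 0.77 ± 0.37 did not pass the test (adjusted p = 0.148), although with libraries scaled by total counts it did, at 0.97 with adjusted p = 0.0464.

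Fn1 encodes fibronectin, the glycoprotein that cells assemble into the provisional matrix of a wound (chr1:71585520-71653200, minus strand). It ran from 310 to 2245 CPM over the 35 libraries, a 7.25-fold ratio of highest to lowest that was the smallest of the 10. In week 4 it stood at 2245, 1798, 1550 and 2124 CPM in radiated and 509, 836, 551 and 487 CPM in control skin, with no overlap. On the log2 scale the rise came to 1.70 ± 0.19 (SE, adjusted p = 7.52e-05, edgeR). In week 3 radiated skin at 1035, 819, 1871 and 976 CPM overlapped control skin at 414, 1323, 1121 and 492 CPM, and the difference of 0.51 ± 0.41 did not pass (adjusted p = 0.378). The 9 fibroblast markers, which include the collagen genes Col1a1, Col1a2 and Col3a1, moved with Postn, Sparc and Fn1: they summed to 12100 to 21640 CPM in radiated and 2221 to 12210 CPM in control skin of week 3, ranges that touch, and did not overlap in week 4. The 3 collagen genes made up 63.2% to 95.3% of the sum in the libraries of week 4, and the other 6 markers summed to 1752 to 2385 CPM in radiated and 881 to 1210 CPM in control skin. Their part in these rises was not tested.

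Thbs1 and Thbs2 encode thrombospondins, trimeric proteins that bind CD36, CD47 and integrins and restrain blood vessel growth. Thbs1 (chr2:118111876-118127133, plus strand) is stored in platelet granules as well as being made by fibroblasts and macrophages. It was the one gene of the 10 whose highest group mean was in radiated skin of week 3, at 2357, 2055, 1008 and 457 CPM, where control skin held 633, 324, 483 and 421 CPM. Replicate 4 fell within the control range, and each of the 4 pairs had the higher Thbs1 level in its radiated library. On the log2 scale the rise was 1.69 ± 0.46 (SE, adjusted p = 0.0239, edgeR). This call was lost on leaving out radiated replicate 1 or 2 or control replicate 2, 3 or 4, with adjusted p between 0.0551 and 0.0663. In week 4 radiated skin held 537, 526, 443 and 885 CPM and control skin 87.2, 87.5, 79.7 and 90.0 CPM. The control libraries of week 4 were close together and, apart from 1 sham library at 76.9 CPM, below every other library, so the groups did not overlap. The log2 fold change in week 4 was 2.80 ± 0.20 (adjusted p = 6.88e-06). Platelet markers, 5 of them measured, summed to 31.8 to 93.9 CPM in radiated and 10.6 to 17.1 CPM in control skin of week 3, and to 24.2 to 51.7 CPM against 6.77 to 9.95 CPM in week 4.

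Thbs2 (chr17:14665500-14694235, minus strand) rose in week 4, from 104, 134, 131 and 154 CPM in control skin to 763, 446, 412 and 639 CPM in radiated skin. No radiated library came near the control range, and the log2 rise was 2.12 ± 0.21 (SE, adjusted p = 3.98e-05, edgeR). In week 3 it stood at 443, 502, 714 and 198 CPM in radiated and 361, 283, 229 and 292 CPM in control skin. Radiated replicate 4 lay below every control library, and the difference of 0.70 ± 0.33 did not pass (adjusted p = 0.139). Without that library it was 0.96 (adjusted p = 0.00956), and with total-count scaling 0.92 (adjusted p = 0.0425).

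Ccn1 and Ccn2, formerly Cyr61 and Ctgf, encode CCN proteins that bind integrins and heparan sulphate and are switched on quickly by serum, stretch and TGF-beta. By week 4 both were lower in radiated skin. Ccn2 (chr10:24595442-24598683, plus strand) held 15.2, 22.7, 21.3 and 13.1 CPM in radiated and 51.9, 30.1, 35.1 and 38.7 CPM in control skin of week 3. In week 4 it held 20.1, 26.7, 25.0 and 17.6 CPM against 35.3, 61.4, 49.7 and 51.4 CPM. Radiated libraries were below all control libraries in both weeks, and Ccn2 fell by 1.08 ± 0.23 (SE, adjusted p = 0.00907, edgeR) and by 1.14 ± 0.18 (adjusted p = 0.000701) on the log2 scale. Ccn1 (chr3:145646976-145649981, minus strand) stood at 118, 116, 107 and 123 CPM in radiated and 109, 339, 239 and 227 CPM in control skin of week 4. Control replicate 1 lay inside the radiated range, and Ccn1 was higher in radiated skin in 1 of 4 pairs. The log2 change was -0.97 ± 0.27 (adjusted p = 0.0142), and in a single fit of all 35 libraries it was -0.98 and did not pass (adjusted p = 0.158). Its week 3 difference of -0.34 ± 0.39 did not pass either (adjusted p = 0.545).

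The counts of calls are to be read against those of all genes. In week 3, 4 of the 10 genes rose and 1 fell, where 13.6% of 17653 genes tested were called higher and 13.6% lower (23% and 7.19% with total-count scaling, 8.75% and 9.12% without control replicate 1). In week 4, 8 rose and 2 fell, where 24.2% of 17850 genes were called higher and 24.2% lower. Groups did not overlap for 4 of the 10 in week 3 and 9 of the 10 in week 4, against 31.7% and 46% of all genes. The median log2 fold change of the 10 was 0.74 in week 3 and 2.38 in week 4, beside 0.08 and 0.02 over all genes tested. Libraries scaled by total counts moved the median of all genes by 0.237 in week 3 and by 0.136 in week 1, and each of the 10 genes kept its direction in weeks 3 and 4.

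**Figure D3:**
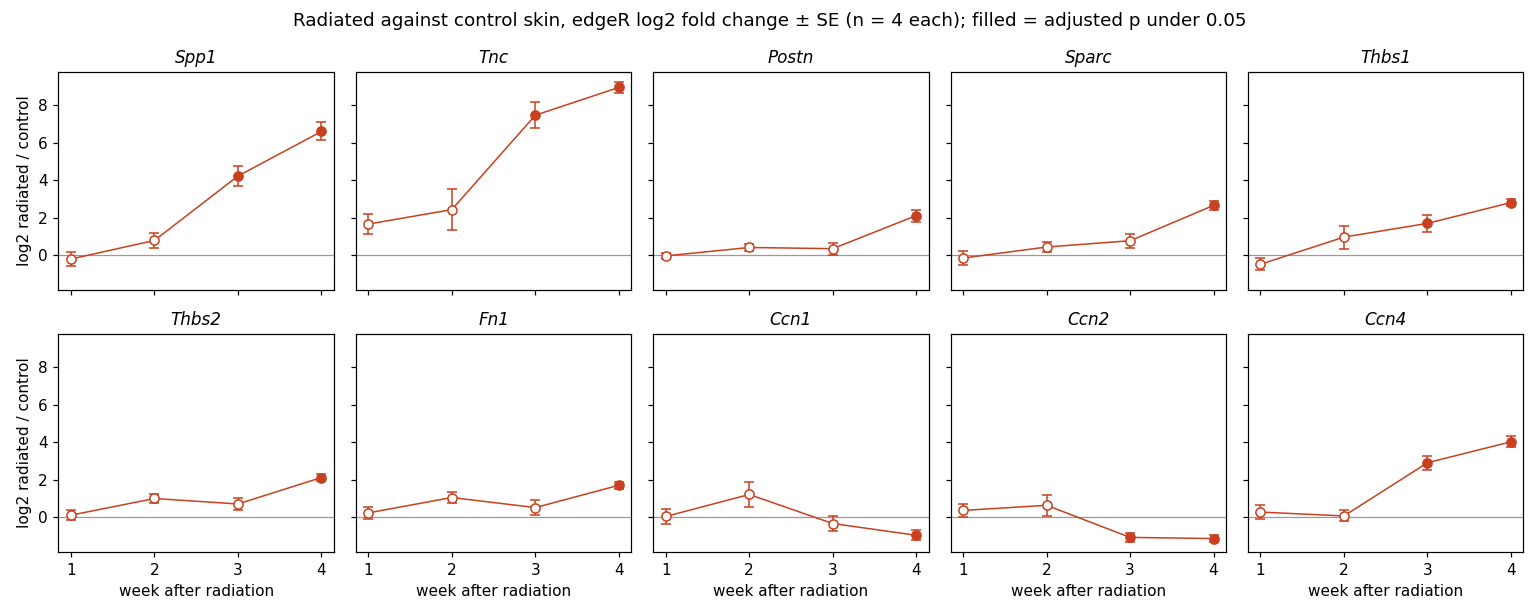
Log2 fold change of radiated against control skin with its SE for each gene in weeks 1 to 4 (n = 4 libraries of each kind), with filled points for adjusted p under 0.05 by edgeR. No point is filled in weeks 1 and 2, 5 are filled in week 3 and all 10 in week 4, with Ccn1 and Ccn2 below 0.

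In weeks 1 and 2 none of the 10 genes was called in radiated against control skin by edgeR. At an unadjusted p under 0.05 there was 1 of the 10 in week 1 and 4 in week 2, beside 14.1% and 13.8% of all genes tested. Over all genes, edgeR called 0% in week 1 and 0.00577% in week 2. DESeq2 called 0 and 2 of the 10, and 2.24% and 3.96% of all genes. Tnc in week 1 was the gene under that unadjusted threshold, at 18.8, 100, 67.5 and 29.5 CPM in radiated and 30.4, 8.31, 12.8 and 17.4 CPM in control skin. The difference was 1.65 ± 0.52 (SE, adjusted p = 0.244), and 2 radiated libraries lay within the control range. In week 2 all 10 fold changes were above 0, with a median of 0.87 beside -0.003 over all genes tested. Groups did not overlap for Thbs2 and Fn1, 2 of the 10, against 6.92% of all genes. Thbs2 held 212, 255, 319 and 189 CPM in radiated and 86.9, 96.0, 167 and 137 CPM in control skin of week 2, a difference of 1.00 ± 0.24 (adjusted p = 0.145). Fn1 held 1610, 889, 988 and 684 CPM against 664, 310, 465 and 569 CPM, a difference of 1.05 ± 0.30 (adjusted p = 0.174). With each mouse as a block, 3 of the 10 and 3.7% of all genes were called in week 2: Thbs2 at 1.02 (adjusted p = 0.023), Fn1 at 1.04 (adjusted p = 0.037) and Ccn1 at 1.16 (adjusted p = 0.0269). Ccn1 was higher in radiated skin in 4 of 4 pairs of week 2, at ratios of 2.62, 2.7, 2.76 and 1.28. Its groups overlapped, with radiated libraries from 52.5 to 412 CPM and control libraries from 20.0 to 149 CPM.

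Whether the radiated minus control difference changed over the weeks was tested in 1 fit of the 32 radiated and control libraries. The difference changed for 8 of the 10 genes, where 15.6% of 19338 genes tested were called. Adjusted p from edgeR's F test was 1.11e-06 for Spp1, 7.15e-06 for Ccn4, 0.000118 for Tnc, 0.0014 for Sparc, 0.00149 for Postn, 0.00795 for Thbs2, 0.01 for Thbs1 and 0.0459 for Ccn2. Fn1 (adjusted p = 0.118) and Ccn1 (adjusted p = 0.17) did not pass, and with the mouse as a block Ccn1 did (adjusted p = 0.0427). Leaving out the libraries of 1 replicate number lost Ccn2 (without 2, 3 or 4), Thbs1 (without 2, 3 or 4) and Thbs2 (without 1 or 2), so that 5 to 7 calls were left. The share of all genes called fell as well, to 7.63%, 8.46%, 4.97% and 9.2% without numbers 1 to 4. Ccn2 also did not pass with no filter on low counts (adjusted p = 0.0501).

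The steps between neighbouring weeks placed these changes. From week 1 to week 2, edgeR called none of the 10 and 0% of all genes, with Thbs1 and Thbs2, 2 of the 10, at an unadjusted p under 0.05, beside 6.7% of all genes, and DESeq2 called 0 of the 10 and 0.0354% of all genes. From week 2 to week 3 the difference rose for 3 of the 10, where 2.81% of all genes were called higher: Tnc by 5.04 ± 1.14 (SE, adjusted p = 0.00903), Spp1 by 3.42 ± 0.64 (adjusted p = 0.00313) and Ccn4 by 2.84 ± 0.49 (adjusted p = 0.00177). With total-count scaling 4.25% of all genes were called higher, and without 1 replicate number 0.176% (number 3) to 2.15% (number 4). The Tnc step ranged from 4.08 to 7.47 on leaving out 1 replicate number, was lowest without replicate 1 and highest without replicate 4, and was 5.88 with the mouse as a block. Its call was lost without replicate 1 (adjusted p = 0.0959) or 3 (0.123), and that of Spp1 without replicate 3 (0.0531). For Ccn2 the same step was -1.72 (adjusted p = 0.0731), where 4.1% of all genes were called lower. The Ccn2 step passed with the mouse as a block at -1.88 (adjusted p = 0.0425) and with DESeq2 at -1.73 (adjusted p = 0.033). Under those settings 4.87% and 6.41% of all genes were called lower. From week 3 to week 4, Postn alone of the 10 passed, by 1.79 ± 0.40 (adjusted p = 0.0411), where 0.264% of all genes were called higher (0.0465% with total-count scaling, 0% to 0.371% without 1 replicate number). That call was lost with total-count scaling (adjusted p = 0.0769) and without any 1 replicate number, with adjusted p between 0.0554 and 0.281. Without replicate 1 the step of Spp1 passed instead, at 3.07 (adjusted p = 0.025). With the mouse as a block, Sparc passed beside Postn, at 1.97 (adjusted p = 0.0442).

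Sham skin gave a further baseline, and all comparisons with it share the same 3 libraries. Against sham, 8 of the 10 genes were higher in radiated skin of week 4, where 15.2% of 18346 genes tested were called higher, and none was lower, where 11.5% were. Spp1 held 1.24, 1.73 and 0.57 CPM in sham skin and was 77-fold higher in radiated skin of week 4 (log2 6.27 ± 0.58, adjusted p = 0.000302, edgeR). Tnc was more abundant in sham skin than in control skin of week 4, at 18.2, 120 and 54.0 CPM, and its rise against sham was 59.8-fold (log2 5.90 ± 0.69, adjusted p = 0.000706), or 6.76 on the log2 scale without sham replicate 2, the highest. Ccn4, at 4.15, 10.1 and 4.70 CPM in sham skin, was 8.13-fold higher (log2 3.02 ± 0.41, adjusted p = 0.00135). The others were Fn1 by 2.25 ± 0.22 (adjusted p = 0.00039), Thbs2 by 2.21 ± 0.35 (0.00257), Sparc by 2.12 ± 0.40 (0.00552), Postn by 2.02 ± 0.48 (0.015) and Ccn1 by 1.26 ± 0.32 (0.0197). These are the 8 genes whose radiated and sham libraries did not overlap, against 37.8% of all genes.

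Thbs1, Ccn1 and Ccn2 read differently against sham and against control skin. Thbs1 stood at 76.9, 662 and 105 CPM in sham skin, so that replicate 2 lay above 3 of the 4 radiated libraries of week 4. Its difference from sham was 1.12 ± 0.70 (adjusted p = 0.276, edgeR), and without sham replicate 2 it was 2.78 (adjusted p = 0.00206). In week 3 the difference was 2.41 with that library (adjusted p = 0.0898) and 4.10 without it (adjusted p = 0.0345), and it passed with the library kept in 1 fit of all 35 libraries (2.38, adjusted p = 0.00643). In week 1 it was -0.08 with that library (adjusted p = 0.966) and 1.55 without it (adjusted p = 0.0365). Ccn1 stood at 70.5, 55.0 and 23.7 CPM in sham skin, below every radiated library of week 4. Against control skin of that week, Ccn1 was lower in radiated skin, with overlapping groups. Its rise against sham did not pass in a single fit of all libraries (1.22, adjusted p = 0.13). Ccn2 held 40.8, 37.9 and 15.7 CPM in sham skin and overlapped radiated skin of week 4 (-0.45 ± 0.32, adjusted p = 0.333). Without sham replicate 3, the lowest of the group, the difference was -0.79 (adjusted p = 0.0244).

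Fewer of the genes were called against sham in earlier weeks. In week 3, 5 of the 10 genes were higher, where 10.4% of all genes were called higher: Tnc by 5.80 ± 0.96 (SE, adjusted p = 0.00878, edgeR; 6.67 without sham replicate 2), Spp1 by 5.08 ± 0.67 (0.00521; 4.49 without radiated replicate 1), Thbs2 by 1.93 ± 0.46 (0.0243), Ccn4 by 1.65 ± 0.48 (0.0446) and Fn1 by 1.54 ± 0.34 (0.018). Groups did not overlap for 4 of the 10, against 33.7% of all genes, and Ccn4 was called with overlapping groups. Leaving out 1 library lost the call of Ccn4 (without radiated replicate 1, 2 or 3 or sham replicate 1 or 3), of Thbs2 (without radiated replicate 2 or sham replicate 2 or 3) and of Fn1 (without sham replicate 3), and the share of all genes called higher ran from 4.37% without sham replicate 2 to 12.2% without radiated replicate 4. In week 2, Fn1 alone was called, by 1.33 ± 0.31 (adjusted p = 0.0453), where 5.06% of all genes were called, and leaving out radiated replicate 2 or 3 or any sham replicate lost it. Single libraries also held calls back: Ccn1 passed at 1.63 (adjusted p = 0.0205) in week 3 without radiated replicate 4 and at 2.22 (0.0444) in week 2 without radiated replicate 1, and Ccn2 at -1.10 (0.046) in week 3 without sham replicate 3. In week 1 edgeR called none of the 10 and 1.75% of all genes, with Fn1, Ccn1 and Ccn2, 3 of the 10, at an unadjusted p under 0.05, as were 16.6% of all genes. DESeq2 called 2 of the 10 and 6.09% of all genes in that week, and the 2 were Fn1 at 1.48 (adjusted p = 0.000497) and Ccn1 at 2.13 (adjusted p = 0.000168), whose radiated and sham libraries did not overlap, as in 14.9% of all genes. By edgeR both passed without radiated replicate 2 (adjusted p = 0.0245 and 0.0316). On leaving out 1 library the share of all genes called ran from 0.00557% (without radiated replicate 3) to 2.88% (without sham replicate 1) in week 1 and from 0.583% (without sham replicate 3) to 7.94% (without radiated replicate 1) in week 2.

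**Figure D4:**
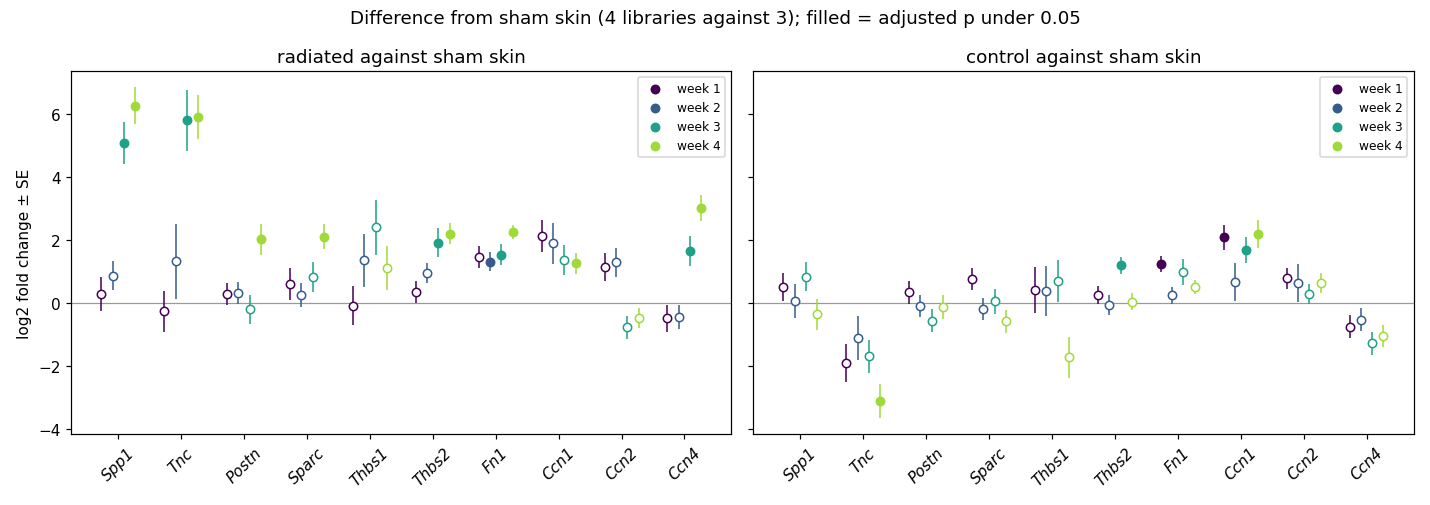
Log2 fold change with its SE of radiated skin (left) and control skin (right) against the same 3 sham libraries for each gene and week, with filled points for adjusted p under 0.05 by edgeR. Tnc and Spp1 are the highest in radiated skin of weeks 3 and 4, Ccn1 is above 0 on both sides in every week, and Tnc is lowest in control skin of week 4.

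Control skin was not equal to sham skin. Ccn1 was higher in control skin of week 1, at 298, 126, 223 and 206 CPM (2.10 ± 0.40, adjusted p = 0.0357, edgeR), of week 3 (1.69 ± 0.42, adjusted p = 0.0372, or 0.0606 in 1 fit of all 35 libraries) and of week 4 (2.19 ± 0.45, adjusted p = 0.041). All control libraries of these 3 weeks lay above all 3 sham libraries, while those of week 2 overlapped them at 20.0, 61.7, 149 and 89.8 CPM. Fn1 was higher in week 1 by 1.25 ± 0.25 (adjusted p = 0.0396) and Thbs2 in week 3 by 1.20 ± 0.28 (adjusted p = 0.031). Tnc was lower in week 4, at -3.09 ± 0.53 (adjusted p = 0.0231), or -2.27 without sham replicate 2, so that 2 of the 10 genes were called in each of weeks 1, 3 and 4, against 4.92%, 11.4% and 3.65% of all genes. In week 2 edgeR called 0 of the 10 and 2.44% of all genes, with 0 of the 10 at an unadjusted p under 0.05, beside 21.1% of all genes, and DESeq2 called 0 of the 10 and 10.8% of all genes.

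Each of these 6 calls was lost on leaving out some single libraries, and the share of all genes called moved too. In week 1 it ran from 0% (without sham replicate 2 or 3) to 9.84% (without sham replicate 1), in week 3 from 3.46% (without sham replicate 3) to 13.3% (without sham replicate 1) and in week 4 from 0% (without control replicate 4) to 9.26% (without sham replicate 1). In week 1 both calls were lost without control replicate 2, 3 or 4 or sham replicate 2 or 3, with adjusted p between 0.056 and 0.11. In week 3 Ccn1 was lost without control replicate 1, 3 or 4, Thbs2 without any control replicate, and both without sham replicate 2 (Ccn1 also without sham replicate 3), with adjusted p between 0.0515 and 0.0922. In week 4 Tnc was lost without any control replicate or sham replicate 3 and Ccn1 without control replicate 2, 3 or 4 or sham replicate 2 or 3, with adjusted p between 0.0549 and 0.122. Without sham replicate 1, Tnc also passed in week 1 (-2.34, adjusted p = 0.0249) and week 3 (-2.12, 0.00748), Ccn4 in week 3 (-1.50, 0.0321) and Thbs1 in week 4 (-2.16, 0.045), and without sham replicate 2 Thbs1 passed in week 3 (2.34, 0.018). Hair follicle markers stood at 2129 to 33490 CPM in sham skin and at 36.2 to 50.0 CPM in control skin of week 4, a gap that moves with this comparison and whose part was not tested.

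The order of the 9 groups repeats this picture without a test. Radiated skin of week 4 had the highest mean of Spp1, Tnc, Postn, Sparc, Thbs2, Fn1 and Ccn4, radiated skin of week 3 that of Thbs1, radiated skin of week 2 that of Ccn2 (77.7 ± 46.8 CPM, SD, n = 4) and control skin of week 4 that of Ccn1 (228 ± 94.2 CPM). Down each order most neighbouring groups overlapped. Gaps at the top separated radiated skin of week 4 from the next group for Postn, Sparc and Ccn4, and radiated skin of week 3 from the next group for Spp1 and Tnc. For Thbs2, Fn1, Ccn1 and Ccn2 no 2 neighbouring groups were apart, and for Thbs1 only control skin of week 4, the lowest group at 86.1 ± 4.47 CPM, was apart from its neighbour.

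Other genes of the same system came from lists of relatives, receptors and pathway genes. Of 21 further matricellular genes, 19 were tested, and in week 4, 7 rose and 5 fell against control skin, where 24.2% of all genes were called in each direction. Tnn, which encodes tenascin W, rose by 4.61 ± 0.48 on the log2 scale (SE, adjusted p = 4.94e-05, edgeR), and Thbs4 by 2.17 ± 0.37 (adjusted p = 0.000941). Spock2, which encodes a testican proteoglycan related to Sparc, fell by 2.75 ± 0.23 (adjusted p = 1.3e-05). The median of this list was 0.51, beside 0.02 over all genes. In week 3, when 13.6% of all genes were called in each direction, 2 of its genes rose and 4 fell.

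Among receptors of these proteins, 18 were tested. Of these, 10 rose and 2 fell in week 4, beside 24.2% of all genes in each direction, and 6 rose and 2 fell in week 3, beside 13.6%. Stab1, a scavenger receptor that takes up the Sparc protein, rose by 2.71 ± 0.11 (SE, adjusted p = 5.39e-07, edgeR), Itga5, the integrin chain of the main fibronectin receptor, by 2.57 ± 0.19 (adjusted p = 6.88e-06), and Cd44, a receptor of osteopontin and hyaluronan, by 2.02 ± 0.14 (adjusted p = 5.24e-06). The median was 0.56 in week 4.

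Of 15 genes of the TGF-beta pathway, 11 rose and 2 fell in week 4, beside 24.2% of all genes in each direction, with a median of 0.61. The ligand gene Tgfb1 rose by 1.77 ± 0.13 (SE, adjusted p = 6.76e-06, edgeR) and Skil, which encodes a repressor of SMAD signalling, by 1.22 ± 0.11 (adjusted p = 2.51e-05). In week 3 it had 3 genes up and 1 down, a share near that of all genes, 13.6% in each direction. The 15 genes of the YAP and TEAD pathway, from which Ccn1 and Ccn2 were kept out, had more falls than rises: 2 rose and 8 fell in week 4, with a median of -0.61, and 2 rose and 7 fell in week 3. Vgll3, a TEAD cofactor, fell by 1.28 ± 0.12 (adjusted p = 3.34e-05) and Crim1 by 1.18 ± 0.10 (adjusted p = 1.4e-05), whereas the target Ankrd1 rose by 3.90 ± 0.46 (adjusted p = 9.44e-05). Ankrd1 was scarce, with a mean of 2.71 CPM over the libraries of that comparison, beside 162.5 CPM for Vgll3 and 134.1 CPM for Crim1.

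Myofibroblast genes were divided. Of 10 tested in week 4, 6 rose and 2 fell, where 24.2% of all genes were called in each direction, with a median of 1.42. The fibroblast genes Lrrc15 (5.98 ± 0.32, adjusted p = 2.11e-06, edgeR), Cthrc1 (4.80 ± 0.40, adjusted p = 1.31e-05) and Adam12 (4.30 ± 0.28, adjusted p = 4.34e-06) rose, while Cnn1 (-1.48 ± 0.23, adjusted p = 0.000526) and Myl9 (-1.05 ± 0.17, adjusted p = 0.000602), which encode contractile proteins shared with smooth muscle, fell. Of 5 pericyte and smooth muscle markers, 3 fell, among them Myh11 (-1.62 ± 0.12, adjusted p = 7.41e-06) and Actg2 (-0.998 ± 0.18, adjusted p = 0.00152), and Rgs5 rose (0.92 ± 0.20, adjusted p = 0.0041). They summed to 551 to 1126 CPM in control and 484 to 625 CPM in radiated skin of week 4, and their part was not tested. The contractile genes Acta2 and Tagln stood at -0.23 ± 0.13 and -0.24 ± 0.14 and did not pass (adjusted p = 0.177 and 0.183). Lrrc15 ran from 22.2 to 564 CPM in sham skin, from 65.9 to 167 CPM in radiated skin of week 4 and from 1.46 to 1.96 CPM in control skin of week 4, so its sham and radiated libraries overlapped. In weeks 1 and 2 edgeR called none of the 76 genes of these 5 lists that were tested, with 9 and 21 of them at an unadjusted p under 0.05, beside 14.1% and 13.8% of all genes. In week 3 edgeR called 31 of the 76 genes tested from the 5 lists in either direction, beside 27.2% of all genes. Against sham in week 4 the counts higher and lower were 9 and 1 for further matricellular genes, 10 and 0 for receptors, 8 and 0 for the TGF-beta list, 2 and 3 for the YAP and TEAD list and 4 and 0 for myofibroblast genes, beside 15.2% of all genes higher and 11.5% lower.

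**Figure D5:**
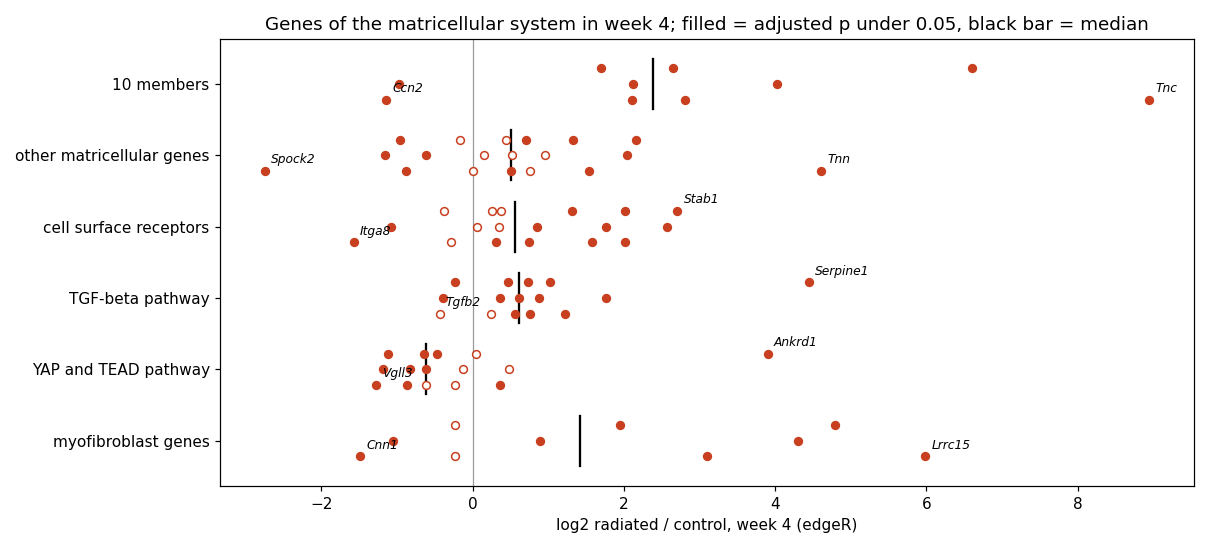
Log2 fold change of radiated against control skin in week 4 for each gene of the 5 lists and of the 10 matricellular genes (1 point per gene, filled for adjusted p under 0.05 by edgeR, black bar at the median). The median is 2.38 for the 10 genes, between 0.51 and 1.42 for 4 lists and -0.61 for the YAP and TEAD list.

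Across the 35 libraries the 10 genes did not rise and fall as one. Spearman's rho of log2 CPM, which all rests on the same libraries and groups, was 0.82 for Spp1 with Thbs2, 0.77 for Sparc with Fn1 and 0.75 for Tnc with Ccn4. Ccn1 and Ccn2 had a rho of 0.50 with each other, and Ccn2 one of -0.57 with Tnc. Among 12523 other genes, those most like Sparc were Col15a1 (0.95), Serpinh1 (0.94), the collagen chaperone, and Fkbp10 (0.94), a collagen prolyl isomerase. Those most like Ccn1 were Zfp36 (0.88), Dusp1 (0.87) and Zfp36l1 (0.82), of which Zfp36 and Dusp1 are immediate early genes. Tnc was most like Fscn1 (0.94), Col18a1 (0.93) and Aldh18a1 (0.93), and Spp1 most like Tacc1 (0.89), Adam9 (0.89) and Cltc (0.88). For Thbs1 they were Clic4 (0.92), Lrrfip1 (0.89) and Tnfaip6 (0.89), and for Thbs2 they were Ppp1r18 (0.91), Pdpn (0.89) and Plek (0.89). Fn1 was closest to Mfap5 (0.92), Prcp (0.91) and Pltp (0.91), and Ccn2 to Bsdc1 (0.88), Fam89a (0.84) and P3h2 (0.83). Postn and Ccn4 had the lowest best values, with Hmcn1 (0.78), Lum (0.75) and Gask1b (0.72) for Postn and Bmp1 (0.81), Bgn (0.81) and Fmnl3 (0.80) for Ccn4.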

How the data were processed

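RNA was measured in 35 skin libraries, and the authors deposited estimated counts per gene, not scaled between libraries, of which 29.5% to 32.5% per library were not whole. Per the submitters' processing notes, Trim Galore 0.6.7, kallisto 0.46.2 and the build mm10 were used; per the labels' protocols, Kallisto and DESeq2 were. The transcriptome release and the step from transcripts to genes are not given in the sources used here. Of 595 pairs of libraries none was identical, and among the 51 pairs within a group the lowest reduced chi-square was 21.2, so each library was 1 replicate. With nothing said of separate cages or litters, p-values measure the spread between these mice.

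Counts were rounded to whole numbers and tested in R 4.3.3 with edgeR 4.0.16: filterByExpr, TMM scaling (factors 0.816 to 1.16), the quasi-likelihood F test and Benjamini-Hochberg adjustment over all genes tested. An adjusted p under 0.05 is a call, and "rose" or "fell" is written only of calls. Each pair of groups was fitted on its own with no other term, and the change over weeks in 1 fit of the 32 radiated and control libraries with week, kind and their interaction. The SE is the log2 fold change divided by the square root of F. CPM are counts per 1e+06 of the TMM-scaled library, for the 19813 genes that passed the filter over all libraries. The log2 CPM used for rho has a prior count of 2. The steps were tested on simulated counts.

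The 10 genes, the lists and the tests were chosen with earlier results of these data known. Named genes are the 10 in every comparison, from each list up to 3 called genes with the largest change in week 4 and a mean of at least 1 CPM, and for each of the 10 the 3 genes with the highest rho and a mean of at least 5 CPM. A gene that this rule picks is not reported here. Acan, Cnn1, Myl9, Acta2 and Tagln were named after their values were seen. Pairing of radiated and control libraries comes from the numbers in the labels and from the count of mice. The mean correlation of same-numbered libraries' deviations from their group means was 0.071, 0.173, 0.053 and -0.02 in weeks 1 to 4, against -0.024, -0.057, -0.017 and 0.007 for other pairs. Alternatives were total-count and RLE scaling, no filter, 1 fit of all libraries, DESeq2 1.42.0, the mouse as a block, and leaving out each replicate. Positions are from GENCODE M21 (GRCm38). With several RefSeq promoter entries for a gene, the one nearest that annotation's 5′ end was used. Protein sequences and the promoters of Thbs1, Fn1, Ccn2 and Ccn4 were not used here.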

Additional observations from a re-analysis of the deposited data

Results flagged for a closer look

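In groups of 4 libraries, 3 of the 80 sets of values of a gene in a group had 1 library far from the other 3, and chance gives about 1 in 20 such sets. Tnc stood at 5.382 CPM in control replicate 3 of week 4, where the other libraries held 7.99 to 8.46 CPM. Tnc stood at 535.6 CPM in radiated replicate 4 of week 2, where the others held 15.5 to 72.1 CPM. Postn stood at 283.5 CPM in control replicate 4 of week 2, where the others held 179 to 192 CPM. The gap to the nearest library was 0.848, 0.891 and 0.882 of the group's range.

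For 8 of the 10 genes the radiated minus control difference changed over the weeks by edgeR's interaction F test, with adjusted p = 1.11e-06 for Spp1, 7.15e-06 for Ccn4, 0.000118 for Tnc, 0.0014 for Sparc, 0.00149 for Postn, 0.00795 for Thbs2, 0.01 for Thbs1 and 0.0459 for Ccn2. Of all 19338 genes tested, 15.6% were called. The calls of Thbs2, Thbs1 and Ccn2 were each lost on leaving out some single replicate numbers, so that 5 to 7 calls were left. Ccn2 also did not pass with no filter on low counts (adjusted p = 0.0501).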

How the results depend on the processing

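All 10 genes, called or not, kept their direction in radiated against control skin of weeks 3 and 4 under every alternative run (140 values in each week). Of these values, 5 of week 3 (Thbs1) and 1 of week 4 (Ccn1) no longer passed, and 3 of week 3 (Sparc and Thbs2) newly passed. The number of the 10 genes called moved elsewhere, and the cause was not tested. The share of all genes called under the same setting is given in parentheses. For radiated against control skin of week 2 it was 0 (0.00577%), with DESeq2 2 (3.96%) and with the replicate block 3 (3.7%). For radiated week 1 against sham it was 0 (1.75%), and 2 with no filter (2.23%), with 1 fit of all 35 libraries (6.18%) and with DESeq2 (6.09%). For radiated week 2 against sham it was 1 (5.06%), and 0 with total-count scaling (5.35%), 2 with 1 fit of all libraries (16.4%) and 3 with DESeq2 (12.5%). For control week 3 against sham it was 2 (11.4%), and 4 with total-count scaling (14.1%) and with DESeq2 (19.2%). For the step from week 3 to week 4 it was 1 (0.419%), and 0 with total-count scaling (0.315%), 2 with the replicate block (0.905%) and 4 with DESeq2 (2.37%). The pairing by mouse moved no other count of calls by over 1.5 times. Leaving out 1 replicate, which leaves fewer samples, gave 0 to 2 calls for radiated week 1 (0.00557% to 2.88%) and for radiated week 2 against sham (0.583% to 7.94%), 3 to 6 for radiated week 3 (6.07% to 22%), 0 to 3 for control week 1 (0% to 9.84%), 0 to 4 for control week 3 (3.46% to 13.3%) and 0 to 3 for control week 4 (0% to 9.26%). It gave 5 to 7 for the change over weeks (4.97% to 9.2%), where the main value was 8 (15.6%), 1 to 3 for the step from week 2 to 3 (0.445% to 5.56%) and 0 to 1 for that from week 3 to 4 (0% to 0.484%). Thbs1 in radiated week 1 against sham ranged from -0.532 to 1.55 on the log2 scale, the highest without sham replicate 2. Values of radiated against control skin in weeks 3 and 4 and of the test over the weeks were set aside whatever their p. Outside those, 71 of the 160 member values over all comparisons passed under no setting and had an unadjusted p of at least 0.05. Of these 71, 34 changed sign in some alternative. Depth limits Spp1 most, with 10 counts in its lowest library.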
